A study of Mus musculus with 9 samples.

Results

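Chronic social defeat stresses a mouse by repeated encounters with an aggressor, and inbred mice that have gone through it are commonly divided into susceptible and resilient animals, most often by whether they avoid others afterwards. The comparison described here sets 3 susceptible arrays, numbered 1, 2 and 3, against 3 resilient arrays, also numbered 1, 2 and 3, out of 9 arrays in all, and asks which amygdala transcripts in Ago2 precipitates differed between both outcomes of the same stress. Susceptible and resilient mice were C57BL/6J males put through defeat at 10 weeks of age. The 3 control arrays (numbered 1, 2 and 4) came from C57BL/6J mice, also listed at 10 weeks, that had not been defeated. The labels name no transgene and no drug for any group. Amygdala was taken 8 days after defeat ended, Ago2 was immunoprecipitated, and 100 ng of RNA per array was labelled. Arrays were put in their groups by sample title, and the sources used here do not give the behavioural criterion applied in this study. Nothing in the labels says that each array is a separate animal or that animals were not pooled, so the p-values reflect spread among these samples, in part perhaps technical.

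Ago2 (Argonaute 2) is the protein that holds a mature microRNA and pairs it with target transcripts, so RNA pulled down with it holds microRNAs, transcripts under microRNA control and RNA carried over. The amygdala joins cortex-like basolateral nuclei, rich in glutamatergic neurons, to central nuclei whose GABAergic neurons resemble those of the striatum next to it, and it serves fear, threat and social avoidance. The choroid plexus, an epithelium that makes cerebrospinal fluid, and the basal forebrain, which holds cholinergic neurons, also lie close to it. The tissue level of a transcript, its hold on Ago2 and its carry-over all enter a log2 signal here and cannot be told apart; nor can fewer cells of a type and less RNA per cell.

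Values are log2 RMA signals, on which a difference of 1 is a doubling, for 9803 genes. The 9 array medians lay between 7.11 and 7.19, and the 6 defeated arrays correlated with each other at a Pearson's r of 0.9965 to 0.9991 across genes, which are not independent replicates. The table had been selected by the authors on a difference among the 3 groups, since no gene had a one-way analysis of variance p above 0.287 in its best entry, so the shares over all its genes given below are the background of a selected table. Of 589 olfactory and vomeronasal receptor genes, which brain tissue barely uses, 95% had a mean log2 signal under 6.12, and 58.5% of all genes lay above that level. On the first principal component (49.7% of the variance) susceptible 3 lay at one end, and on the second (13.7%) resilient 1 lay at one end. Some genes' differences shrank by over 1.5 times or turned when 1 of the 6 defeated arrays was left out. Those are given without the array that moved them most, in brackets or in the text. The average of 6 pan-neuronal markers lay between 11.96 and 11.998 in susceptible arrays and between 11.95 and 11.99 in resilient arrays, ranges that overlap. Only 4 of 20 listed markers of basolateral amygdala and cortical excitatory neurons were in the selected table (Emx1, Rorb, Slc30a3 and Bhlhe22), and 10 of 30 of striatal-type and central amygdala neurons. Members of a list called measured below are those in the selected table, and the others may still have been on the array. Shares of a list that were higher or lower therefore describe only members that passed the selection.

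Susceptible and resilient amygdala differed by small amounts, and no single gene passed the test. limma with Benjamini-Hochberg adjustment called 0 of 9803 genes (0%) at an adjusted p under 0.05, and the smallest adjusted p was 0.346, for Syt10. At an unadjusted limma p under 0.05 there were 1158 genes (11.8%), of which 648 were higher (6.61%) and 510 lower (5.2%) in susceptible arrays. The 90% of genes between the 5th and 95th percentile had differences from -0.15 to 0.16, and the median SE of a difference was 0.054. Differences of at least 1.2-fold numbered 132 higher (1.35%) and 92 lower (0.938%). Susceptible arrays had the higher mean for 54.1% of all genes. Among genes with a mean signal above 6.12 that share was 60.6%, with a median difference of 0.03. All 3 susceptible arrays lay above all 3 resilient arrays for 819 genes (8.35%) and below them for 652 (6.65%). That split turned with the scaling, to 555 above and 1221 below with arrays shifted to a common median and 847 above and 911 below after quantile normalisation. For every gene described below the limma adjusted p over all arrays lay between 0.346 and 0.888, so differences are given by size and by the order of arrays. Other settings called 0 genes too, except that 6 were called without susceptible 1: Adh1 (0.53, SE 0.065, limma adjusted p = 0.0474) was higher, 2900092C05Rik was also higher, and BC049688, Gm5244, Gm9009 and Olfr314 were lower. That was the only setting with calls among many tried, and its adjusted p-values carry no allowance for the selection of the table.

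**Figure D1:**
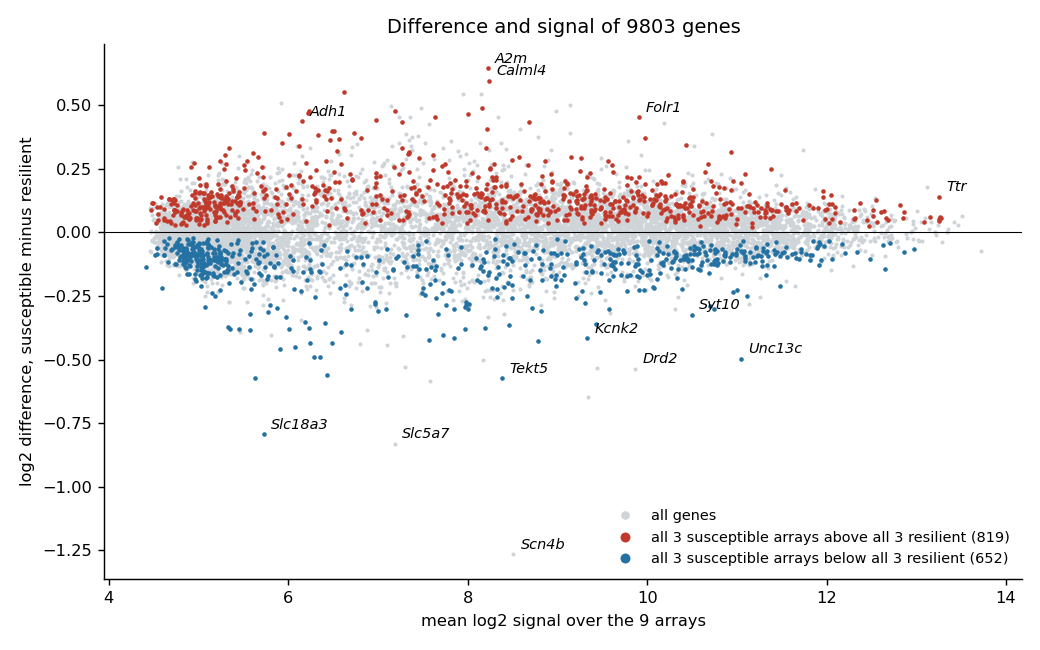
Log2 difference, susceptible minus resilient (vertical axis), against mean log2 signal over the 9 arrays (horizontal axis) for 9803 genes, 1 point per gene. Red points are the 819 genes whose 3 susceptible arrays all lie above the 3 resilient arrays and blue points the 652 whose susceptible arrays all lie below; Scn4b, at -1.27, has the largest difference shown and is grey because its arrays overlap.

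The genes with the smallest unadjusted p, singled out after their values were seen, differed by little but with tight arrays. Syt10 encodes a synaptotagmin, a family of calcium sensors on secretory vesicles. Its log2 signal was 10.33, 10.30 and 10.35 in susceptible arrays, 10.67, 10.58 and 10.71 in resilient arrays and 10.51, 10.57 and 10.48 in controls. Susceptible arrays lay below every other array and resilient arrays above every other array, with a difference of -0.32 (SE 0.044), or 1.25-fold lower. Ccl28, a chemokine that draws lymphocytes to mucosal tissue, had log2 signals of 7.70, 7.74 and 7.87 in susceptible arrays, 8.04, 8.31 and 8.09 in resilient arrays and 7.99, 7.98 and 7.98 in controls. The order of the groups was the same, with controls between the defeated groups, and the difference was -0.38 (SE 0.071). Nxph3, which encodes a neurexophilin, a secreted ligand of presynaptic alpha-neurexins, was at 5.74, 5.84 and 5.86 in susceptible arrays, 6.33, 6.03 and 6.21 in resilient arrays and 5.99, 6.09 and 6.03 in controls. Its susceptible arrays were the lowest of the 9, at a difference of -0.38 (SE 0.072) and a mean signal under 6.12.

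Stk36, a kinase needed to build the central pair of motile cilia, had a log2 signal of 6.86, 6.66 and 6.84 in susceptible arrays, 6.42, 6.34 and 6.51 in resilient arrays and 6.40, 6.47 and 6.55 in controls. All susceptible arrays were above the others, by 0.37 (SE 0.066) over resilient arrays. Adh1, an alcohol dehydrogenase that also oxidises retinol, was at 6.28, 6.58 and 6.54 in susceptible arrays, 5.99, 6.10 and 6.0 in resilient arrays and 5.91, 5.90 and 6.08 in controls. Here too the susceptible arrays lay above the rest (0.44, SE 0.083). Nhsl1, which encodes a regulator of the actin machinery of cell migration, was at 9.12, 9.20 and 9.24 in susceptible arrays, 8.99, 9.01 and 8.96 in resilient arrays and 9.08, 9.10 and 9.08 in controls, so controls lay between the defeated groups, and the difference was 0.20 (SE 0.039). A second table entry of Nhsl1 had a difference of 0.01. Henmt1, the enzyme that methylates the ends of piRNAs, stood lowest in resilient arrays at 6.78, 6.73 and 6.62 in susceptible arrays, 6.41, 6.40 and 6.37 in resilient arrays and 6.46, 6.50 and 6.66 in controls (0.32, SE 0.060), while its second entry was at -0.04. For these 6 genes besides Syt10 the limma adjusted p was 0.411.

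**Figure D2:**
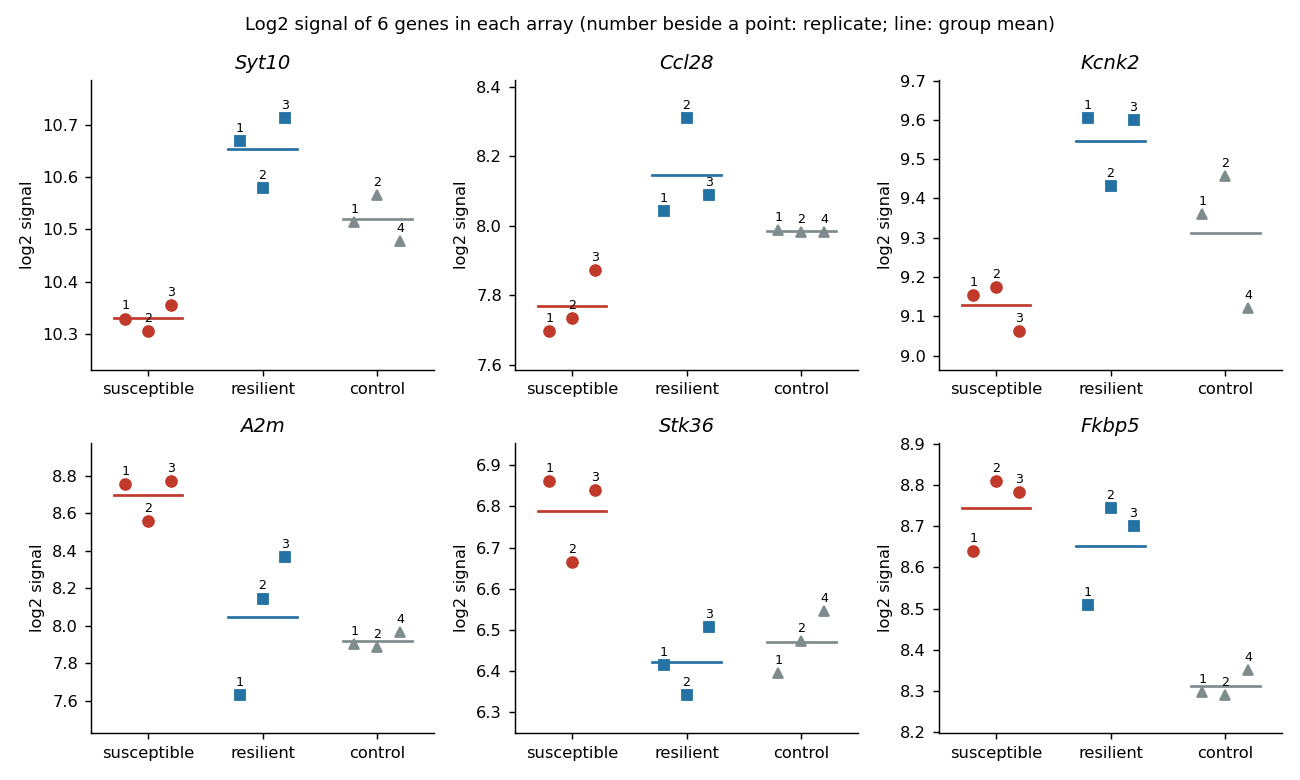
Log2 signal (vertical axis) of 6 genes in every array, by group (susceptible, resilient, control, left to right); each point is 1 array with its replicate number and each line a group mean of 3 arrays. For Syt10 and Ccl28 susceptible arrays are lowest, resilient highest and controls between; Fkbp5 overlaps between the defeated groups and is above control in both.

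Genes of the choroid plexus and ependyma were higher in susceptible arrays, by an amount that rested on susceptible 3 and resilient 1. All 26 measured markers, of 30 listed, had a higher mean in susceptible arrays, against 54.1% of all genes, with a median difference of 0.35 against 0.01 over all genes. All 26 also had a mean signal above 6.12, a level above which 60.6% of genes were higher. The list was chosen with earlier results of these data known, so these shares are no independent test. For 6 of the 26 the defeated groups did not overlap (23.1%, against 15% in either direction over all genes). Averaged over the 26 genes, the log2 signal was 9.18, 9.07 and 9.53 in susceptible arrays, 8.59, 9.0 and 9.13 in resilient arrays and 8.54, 8.70 and 9.05 in controls. Susceptible 3 stood above every other array and resilient 1 below every other defeated array, while susceptible 2 and resilient 3 overlapped. Susceptible 3 was the highest of the 6 defeated arrays for 24 of the 26 genes and resilient 1 the lowest for all 26, against 26.1% and 27.1% of all genes. The median was 0.18 without resilient 1, 0.24 without susceptible 3, and 0.06 without both, when 21 of 26 were higher.

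Within that list Calml4, which encodes a calmodulin-like protein, had log2 signals of 8.56, 8.54 and 8.95 in susceptible arrays, 7.76, 8.38 and 8.12 in resilient arrays and 7.76, 7.85 and 8.21 in controls, with no overlap between the defeated groups and a difference of 0.60 (SE 0.17). Folr1, the folate receptor that carries folate into cerebrospinal fluid, was at 10.15, 10.10 and 10.47 in susceptible arrays, 9.43, 9.86 and 10.06 in resilient arrays and 9.42, 9.55 and 10.10 in controls. Its difference was 0.45 (SE 0.20, 0.28 without resilient 1), with resilient 3 only slightly under susceptible 2. Wfikkn2, whose secreted product blocks growth differentiation factors, was at 6.63, 6.46 and 6.78 in susceptible arrays, 6.15, 6.20 and 6.37 in resilient arrays and 6.09, 5.99 and 6.33 in controls, so all 3 susceptible arrays lay above the other 6 arrays (0.38, SE 0.10). Car12, a carbonic anhydrase on the cell surface (0.27, SE 0.12, 0.16 without resilient 1), and Msx1, a homeobox transcription factor (0.40, SE 0.20, 0.19 without resilient 1), also had defeated groups that did not overlap. The groups overlapped for Trpv4, a cation channel that senses osmotic change (0.54, SE 0.24, 0.30 without susceptible 3), and Otx2, a transcription factor that choroid plexus needs (0.50, SE 0.25, 0.28 without susceptible 3). They also overlapped for Cldn2, a tight junction protein (0.50, SE 0.21, 0.26 without resilient 1), Slc4a5, a sodium bicarbonate transporter (0.48, SE 0.27, 0.23 without resilient 1), Kl, which encodes klotho (0.39, SE 0.19, 0.20 without resilient 1), and the water channel Aqp1 (0.39, SE 0.24, 0.16 without susceptible 3). Ttr, which encodes transthyretin and is the hallmark transcript of choroid plexus, had log2 signals of 13.34, 13.30 and 13.42 in susceptible arrays, 13.14, 13.23 and 13.27 in resilient arrays and 13.07, 13.20 and 13.31 in controls, a difference of 0.14 (SE 0.064). Without susceptible 3 and resilient 1 these differences were 0.30 for Calml4, 0.26 for Wfikkn2, 0.16 for Folr1, 0.13 for Trpv4, 0.06 for Otx2 and 0.02 for Slc4a5.

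Genes of motile cilia, the beating cilia of ependyma, were also higher in susceptible arrays. This list was drawn up after the values were seen, and 1 gene, Ccdc153, is in the choroid plexus and ependyma list too. Its genes were taken by name pattern and were not limited to the axoneme and its dyneins. Of 53 measured, 45 had a higher mean in susceptible arrays (84.9%, against 54.1% of all genes), with a median of 0.12. Of the 53, 33 had a mean signal above 6.12, a level above which 60.6% of genes were higher. Of the 53 genes 14 lay wholly above resilient arrays against 1 wholly below (28.3% in either direction, against 15% of all genes). List averages were 6.86, 6.91 and 7.02 in susceptible arrays, 6.74, 6.79 and 6.82 in resilient arrays and 6.72, 6.71 and 6.85 in controls, so the defeated groups did not overlap, and control 4 lay between them. The median was 0.06 without susceptible 3 and resilient 1, with 42 of 53 higher. Drc7, a subunit of the dynein regulatory complex, had log2 signals of 8.32, 8.39 and 8.81 in susceptible arrays, 7.63, 8.11 and 8.31 in resilient arrays and 7.78, 7.83 and 8.26 in controls (0.49, SE 0.20, 0.30 without resilient 1). Tcte1, another subunit of that complex, was at 6.20, 6.54 and 6.68 in susceptible arrays, 6.05, 5.99 and 5.95 in resilient arrays and 6.03, 6.13 and 6.53 in controls (0.48, SE 0.14). Resilient 3 lay just under susceptible 1 for Drc7, and control 4 lay above susceptible 1 for Tcte1. Iqub, a radial spoke protein (0.44, SE 0.15), Cdhr4, a cadherin-related gene (0.39, SE 0.12), Fam216b (0.47, SE 0.19) and Dnah6, a dynein heavy chain (0.36, SE 0.11, 0.22 without susceptible 3), also separated the groups. Of the 8 that had a lower mean, the 1 wholly below resilient arrays was Tekt5, a tektin known from sperm flagella, at 8.16, 7.96 and 8.0 in susceptible arrays, 8.73, 8.68 and 8.44 in resilient arrays and 8.82, 8.46 and 8.16 in controls. With a difference of -0.57 (SE 0.15), it had the largest negative difference among named loci whose defeated groups did not overlap and whose signal was above 6.12.

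Among named loci with no overlap and a mean above 6.12, the 15 largest positive differences were led by A2m, a protease inhibitor of plasma. Its log2 signal was 8.76, 8.56 and 8.77 in susceptible arrays, 7.63, 8.15 and 8.37 in resilient arrays and 7.90, 7.89 and 7.97 in controls. All susceptible arrays exceeded every other array, and the difference was 0.65 (SE 0.15), or 1.56-fold higher (0.44 without resilient 1). Also in this group were Slc24a5, an ion exchanger of pigment cells (0.55, SE 0.20, 0.33 without susceptible 3), Sema3b, a secreted axon guidance cue (0.48, SE 0.15), and Wfdc2, a secreted protein of epithelia (0.47, SE 0.16, 0.29 without susceptible 3). So were the epithelial keratin gene Krt18 (0.45, SE 0.17, 0.27 without susceptible 3), Ecrg4, which encodes a secreted peptide made in choroid plexus (0.44, SE 0.20, 0.23 without susceptible 3, with a second entry at -0.03), the retinol dehydrogenase gene Rdh5 (0.43, SE 0.19, 0.23 without susceptible 3) and the transcription factor gene Cebpa (0.41, SE 0.16, 0.25 without resilient 1). Susceptible 3 was the highest of the 6 defeated arrays for 13 of these 15 genes and resilient 1 the lowest for 13, as in the choroid plexus list; the part of the choroid plexus in these differences was not tested. Without both arrays the differences were 0.40 for A2m, 0.38 for Adh1, 0.40 for Tcte1, 0.10 for Krt18 and 0.11 for Ecrg4.

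**Figure D3:**
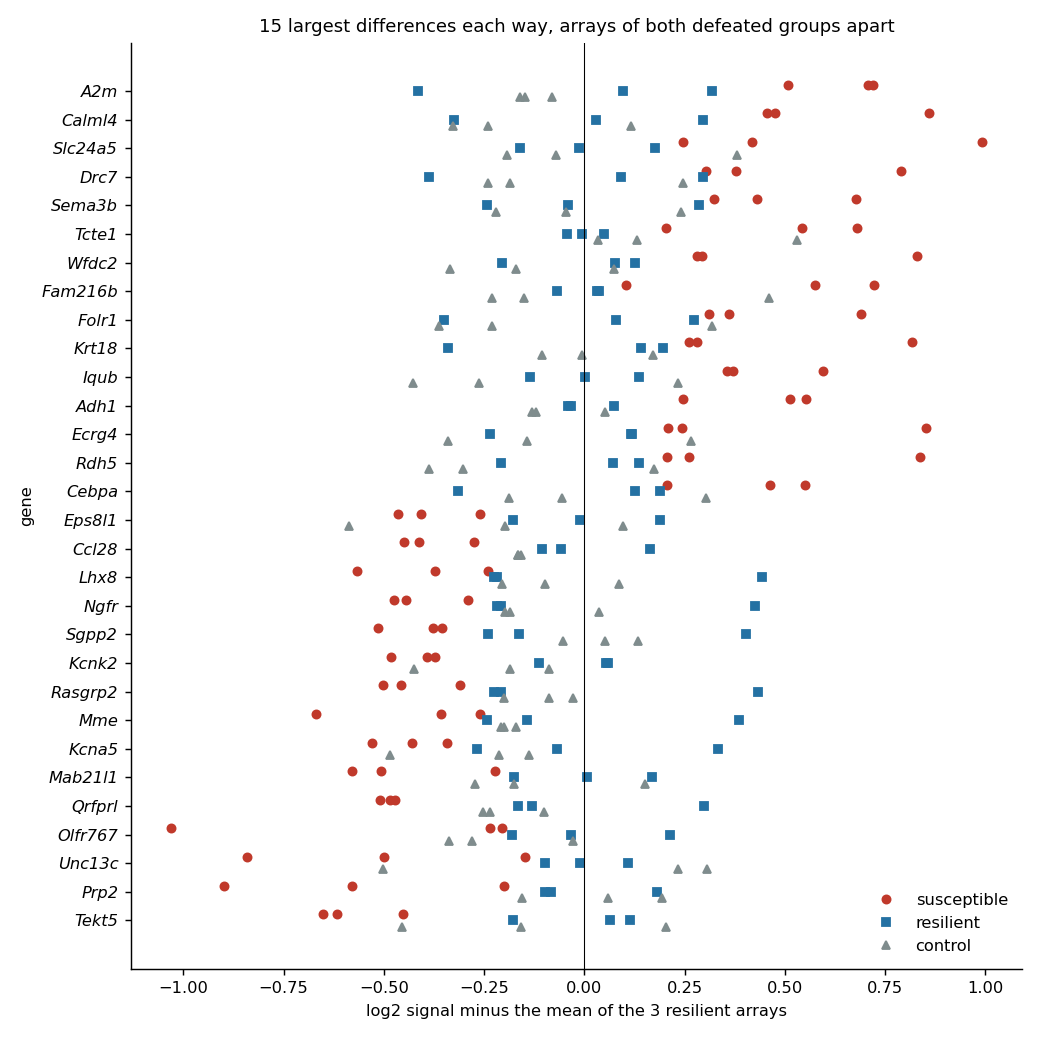
Log2 signal of each array minus the mean of the 3 resilient arrays (horizontal axis) for the 15 largest differences each way among genes whose defeated groups do not overlap; susceptible arrays are red circles, resilient arrays blue squares and control arrays grey triangles, stacked in that order for each gene. For many of the lower genes the resilient square farthest to the right is resilient 1, the highest of the 6 defeated arrays for 11 of these 15 genes.

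Markers of striatal-type neurons were lower in susceptible arrays on average, with overlap in every gene. Of 10 measured, of 30 listed, 9 had a lower mean (45.9% of all genes did), with a median of -0.34. None of the 10 separated the groups. Scn4b, the beta-4 subunit of sodium channels and a marker of medium spiny neurons, had the largest difference in the table, with log2 signals of 8.47, 7.23 and 7.53 in susceptible arrays, 10.03, 8.63 and 8.37 in resilient arrays and 8.37, 8.99 and 8.98 in controls. Susceptible 1 was above resilient 3, and resilient 1 was far above all other arrays. The difference was -1.27 (SE 0.44), or -0.76 without resilient 1. The dopamine receptor gene Drd2 had log2 signals of 9.88, 9.34 and 9.41 in susceptible arrays, 10.72, 9.77 and 9.75 in resilient arrays and 9.89, 10.18 and 9.89 in controls, a difference of -0.54 (SE 0.25), and -0.22 without resilient 1. The same pattern held for the orphan receptor gene Gpr6 (-0.65, SE 0.26), for Syndig1l (-0.38, SE 0.17), for Rasd2, which encodes the small GTPase Rhes (-0.30, SE 0.13), and for the dopamine receptor gene Drd1 (-0.26, SE 0.11), at -0.33, -0.18, -0.18 and -0.14 in that order without resilient 1. Resilient 1 was the highest of the 6 defeated arrays for 9 of the 10 genes, against 12.6% of all genes, and the list median without it was -0.18.

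Cholinergic neuron markers showed the same array order. All 6 measured, of 8 listed, had a lower mean in susceptible arrays (against 45.9% of all genes), with a median of -0.40. The groups did not overlap for 3 (50%, against 15% of all genes). Slc18a3, the vesicular acetylcholine transporter, had log2 signals of 5.40, 5.04 and 5.05 in susceptible arrays, 6.80, 5.65 and 5.43 in resilient arrays and 6.26, 6.06 and 5.83 in controls, a difference of -0.79 (SE 0.30). Slc5a7, the choline transporter, was at 7.04, 6.28 and 6.54 in susceptible arrays, 8.39, 7.12 and 6.85 in resilient arrays and 7.75, 7.56 and 7.13 in controls and overlapped by susceptible 1 (-0.83, SE 0.36). Chat, the enzyme that makes acetylcholine (-0.40, SE 0.21), overlapped as well, whereas Ngfr, the low-affinity neurotrophin receptor (-0.40, SE 0.16), and Lhx8, a homeobox gene of basal forebrain cholinergic neurons (-0.39, SE 0.17), did not. Resilient 1 was the highest of the 6 defeated arrays for all 6 genes. Without it all 6 were still lower, the list median was -0.18, and the differences were -0.37 for Slc18a3, -0.36 for Slc5a7, -0.19 for Ngfr, -0.17 for Lhx8 and -0.12 for Chat. Slc18a3 and Chat had mean signals under 6.12, the level under which 95% of olfactory and vomeronasal receptor genes lay.

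**Figure D4:**
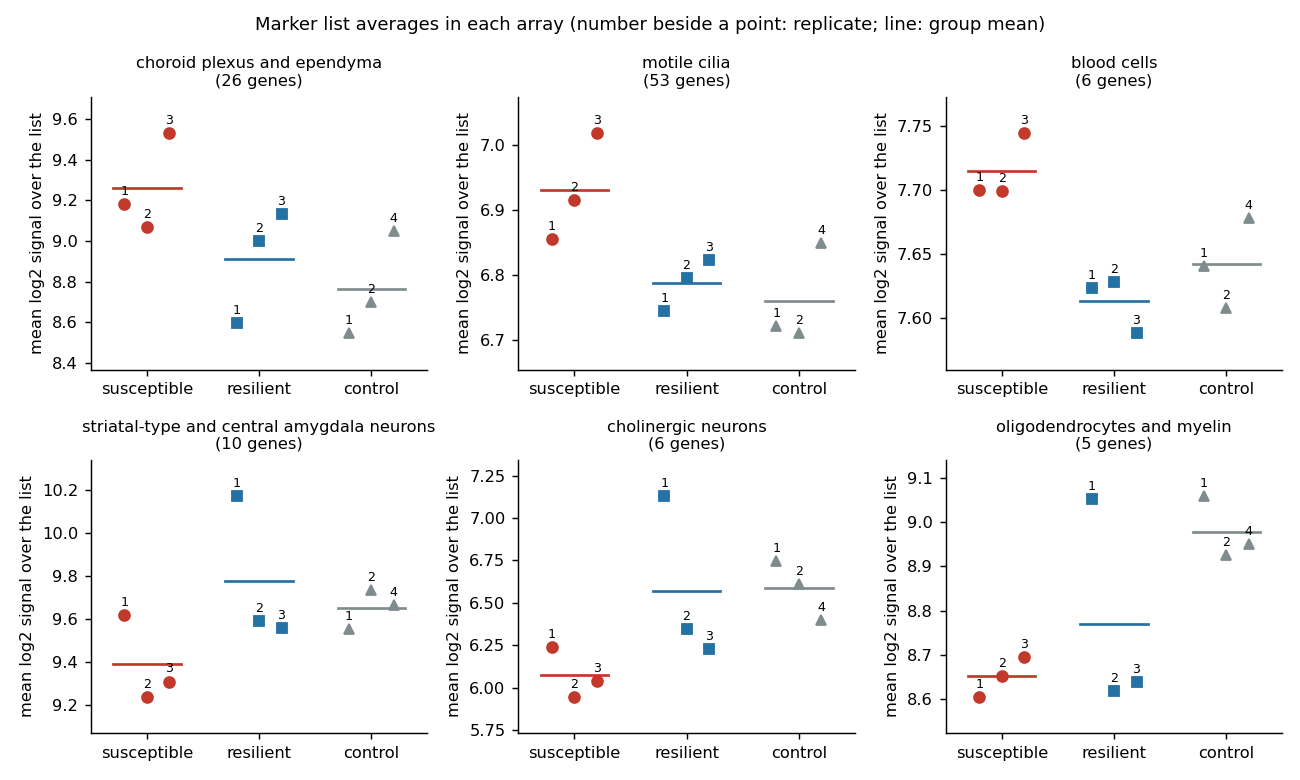
Mean log2 signal over each marker list (vertical axis) in every array, by group (susceptible, resilient, control, left to right); points carry the replicate number and lines are group means of 3 arrays. Susceptible 3 is highest for choroid plexus, motile cilia and blood, and resilient 1 is highest among defeated arrays for striatal-type, cholinergic and oligodendrocyte markers.

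Dopamine, opioid and serotonin genes, a list that also holds Drd1 and Drd2, were mixed. Of 10 measured, 5 were higher and 5 lower. Among them 1 lay wholly above and 3 wholly below resilient arrays (40% in either direction, against 15% of all genes). Th, the rate-limiting enzyme of catecholamine synthesis, was at 5.79, 5.63 and 5.34 in susceptible arrays, 6.24, 5.94 and 5.95 in resilient arrays and 6.36, 5.87 and 6.04 in controls. All susceptible arrays were lower than all others (-0.46, SE 0.15), at a mean signal under 6.12. The serotonin receptor gene Htr1d (-0.31, SE 0.14) and the mu opioid receptor gene Oprm1 (-0.14, SE 0.071) were lower too, at -0.10 and -0.05 without resilient 1. Htr2c, the serotonin receptor gene also expressed strongly in choroid plexus, was higher, at 11.67, 11.69 and 11.70 in susceptible arrays, 11.48, 11.62 and 11.62 in resilient arrays and 11.54, 11.61 and 11.66 in controls (0.11, SE 0.049, 0.06 without resilient 1).

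Potassium channel genes were balanced as a list, with 17 of 34 higher and 17 lower. Among them 5 lay wholly below and 2 wholly above resilient arrays (20.6% in either direction, against 15% of all genes). Kcnk2, which encodes the leak channel TREK-1, had log2 signals of 9.15, 9.17 and 9.06 in susceptible arrays, 9.60, 9.43 and 9.60 in resilient arrays and 9.36, 9.46 and 9.12 in controls. Every susceptible array was below every resilient one, with control 4 among the susceptible values, and the difference was -0.42 (SE 0.084) or 1.33-fold lower (-0.39 without resilient 1). The voltage-gated channel gene Kcna5 (-0.43, SE 0.14, -0.27 without resilient 1) and the inward rectifiers Kcnj5 (-0.38, SE 0.10), Kcnj12 (-0.17, SE 0.055) and Kcnj8 (-0.15, SE 0.059), the last also a pericyte gene, were lower. Kcnk3, an acid-sensitive leak channel, lay wholly above (0.09, SE 0.046, 0.05 without susceptible 3). Of 22 sodium and calcium channel genes 10 were higher and 12 lower. Among the 22, 1 lay wholly above and 1 wholly below resilient arrays (9.09% in either direction, against 15% of all genes). The 1 below was Scn1a, the main subunit of fast-spiking interneurons. It was at 9.85, 9.78 and 9.86 in susceptible arrays, 9.98, 9.90 and 9.99 in resilient arrays and 9.89, 9.90 and 9.90 in controls, with all susceptible arrays below all others (-0.12, SE 0.040).

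Receptors for GABA and glutamate showed a few separated members. Gabrd, the delta subunit of extrasynaptic GABA-A receptors, was at 8.53, 8.60 and 8.44 in susceptible arrays, 8.99, 8.74 and 8.74 in resilient arrays and 8.74, 8.88 and 8.76 in controls. It was lower in all susceptible arrays than in all 6 others (-0.30, SE 0.076, -0.21 without resilient 1). Gabra4, which often pairs with that subunit, differed by -0.08 (SE 0.041) with no overlap, and Gabrr2, a rho subunit at a low signal, by 0.17 (SE 0.063, 0.11 without resilient 2) in the other direction. In all, 3 of 5 GABA receptor genes measured were lower and 3 did not overlap (60%, against 15% of all genes). Of 13 glutamate receptor genes 8 were lower, with a median of -0.01 and 2 without overlap (15.4%, near the 15% of all genes), among them Grm3, a metabotropic receptor (-0.13, SE 0.056). Of 13 protocadherin genes, which encode adhesion proteins of neurons, 7 were higher and 3 lay wholly below resilient arrays (23.1%, against 15% of all genes in either direction), namely Pcdhb16 (-0.28, SE 0.13, -0.10 without resilient 3), Pcdhb18 (-0.17, SE 0.069) and Pcdhb8 (-0.06, SE 0.041). Slc17a6, the vesicular glutamate transporter of subcortical neurons, differed by -0.32 (SE 0.14), and Bhlhe22, a transcription factor gene of cortical excitatory neurons, by 0.25 (SE 0.084), both with overlap.

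The other large negative differences without overlap were those of single genes outside these lists. Unc13c, a vesicle priming protein of the Munc13 family, was at 11.06, 10.71 and 10.36 in susceptible arrays, 11.31, 11.20 and 11.11 in resilient arrays and 11.51, 11.44 and 10.70 in controls. Its difference was -0.50 (SE 0.22, -0.32 without susceptible 3), and all 7 of its table entries were lower, with differences of -0.50 to -0.30, although control 4 lay within the susceptible range. Mme, which encodes the peptide-degrading enzyme neprilysin (-0.43, SE 0.15), had its highest value in resilient 1. So did Rasgrp2, an activator of the GTPase Rap1 that is abundant in striatum (-0.42, SE 0.15), and Sgpp2, a phosphatase of sphingosine-1-phosphate (-0.42, SE 0.14). In that order the differences of the 3 without it were -0.24, -0.21 and -0.21. Qrfprl (-0.49, SE 0.11), Mab21l1, a developmental gene (-0.44, SE 0.13), Prp2, a proline-rich protein gene (-0.56, SE 0.16), the odorant receptor gene Olfr767 (-0.49, SE 0.20, -0.22 without susceptible 3) and Eps8l1, an actin regulator (-0.38, SE 0.15), complete the 15 largest. All 30 of these largest differences had a limma adjusted p of 0.411 and unadjusted p-values of 0.000408 to 0.0535.

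Genes induced by glucocorticoids had slightly higher means in susceptible arrays, and few separated the groups. Fkbp5, a co-chaperone that restrains the glucocorticoid receptor and is induced by glucocorticoids, was at 8.64, 8.81 and 8.78 in susceptible arrays, 8.51, 8.74 and 8.70 in resilient arrays and 8.30, 8.29 and 8.35 in controls. Both defeated groups stood above the controls and overlapped each other, with a difference of 0.09 (SE 0.067) and a 95% confidence interval of -0.06 to 0.24 from limma. Without resilient 1 it was 0.02. Of 16 glucocorticoid-induced genes measured 14 were higher in susceptible arrays (87.5%, against 54.1% of all genes), with a median of 0.08, or 0.04 without resilient 1. Of the 16, 12 had a mean signal above 6.12, a level above which 60.6% of genes were higher with a median of 0.03. The groups did not overlap for 1 of the 16 (6.25%, against 15% of all genes). That gene was Ddit4, an inhibitor of mTOR, at 9.71, 9.66 and 9.69 in susceptible arrays, 9.58, 9.58 and 9.51 in resilient arrays and 9.51, 9.32 and 9.46 in controls (0.13, SE 0.051). Hif3a, a hypoxia-inducible factor subunit (0.22, SE 0.15, 0.13 without susceptible 2), and the lipid droplet gene Plin4 (0.21, SE 0.15, 0.05 without susceptible 2) overlapped. So did Sult1a1, a sulfotransferase (0.16, SE 0.084, 0.07 without susceptible 2), and Lcn2, an iron-binding secreted protein (0.13, SE 0.048, 0.09 without susceptible 3), while Nfkbia, the inhibitor of NF-kappa-B, had a lower mean (-0.15, SE 0.077, -0.06 without susceptible 1).

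Immediate early genes, which neurons switch on when active, and stress peptide genes differed by small amounts. All 5 immediate early genes measured, of 26 listed, were higher (against 54.1% of all genes) with a median of 0.08, including Arc, a cytoskeletal protein of active synapses (0.13, SE 0.068), Junb (0.15, SE 0.075, 0.09 without susceptible 3) and the neurotrophin gene Bdnf (0.05, SE 0.051, -0.0011 without resilient 1), and none separated the groups. Without resilient 1 the median was 0.03 and 4 of the 5 were higher. With all arrays, 4 of the 5 had a mean signal above 6.12, a level above which 60.6% of genes were higher. Bdnf was at 6.19, 6.17 and 6.18 in susceptible arrays, 6.02, 6.18 and 6.18 in resilient arrays and 6.27, 6.21 and 6.18 in controls, its difference resting on resilient 1, and the 95% interval was -0.06 to 0.17. Oxt, which encodes oxytocin, was at 6.32, 6.20 and 6.25 in susceptible arrays, 6.31, 6.36 and 6.45 in resilient arrays and 6.58, 6.44 and 6.36 in controls (-0.12, SE 0.062), and Avp, which encodes vasopressin, differed by -0.09 (SE 0.070, -0.05 without resilient 2); both overlapped. Nr3c1, Nr3c2, Crh, Crhr1 and Fos are not among the genes analysed here. Of 7 stress peptide and steroid receptor genes measured, of 35 listed, 6 were lower and none separated the groups. The circadian repressor gene Nfil3 (0.20, SE 0.067) and the clock-associated gene Ciart (-0.23, SE 0.11, -0.12 without resilient 3) had the largest differences of 15 clock genes, of which 8 were higher.

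Transcripts of the proteins that load and use microRNAs differed by small amounts between the defeated groups. Ago2 had a log2 signal of 11.59, 11.34 and 11.44 in susceptible arrays, 11.37, 11.44 and 11.39 in resilient arrays and 11.19, 11.29 and 11.35 in controls, a difference of 0.06 (SE 0.067, -0.01 without susceptible 1) with a 95% interval of -0.09 to 0.21. Its second entry was at 0.14. Dicer1, which cuts microRNA precursors, differed by -0.02 (SE 0.065, 0.02 without susceptible 2), with an interval of -0.16 to 0.13. Of 17 genes of the machinery 12 were higher (70.6%, against 54.1% of all genes) with a median of 0.03. Of the 17, 15 had a mean signal above 6.12, and over all genes above that level 60.6% were higher with a median of 0.03. The defeated groups did not overlap for 2 of the 17 (11.8%, against 15% of all genes). Ago3 was the 1 wholly above (0.06, SE 0.045) and Ddx6, a helicase of messenger RNA decay, the 1 wholly below (-0.04, SE 0.038, -0.01 without susceptible 2). Chromatin regulators had 21 of 30 higher (70%, against 54.1% of all genes), a median of 0.03, 5 wholly above resilient arrays and 1, the methyltransferase Ezh2, wholly below (-0.03, SE 0.032, -0.02 without resilient 1). Those 6 of 30 are 20%, against 15% of all genes. All 30 had a mean signal above 6.12, a level above which 60.6% of genes were higher. The 5 included the histone deacetylase Hdac4, at 10.65, 10.49 and 10.59 in susceptible arrays, 10.23, 10.46 and 10.43 in resilient arrays and 10.20, 10.16 and 10.42 in controls (0.20, SE 0.082, 0.13 without resilient 1). The others were the histone demethylase Kdm5c (0.13, SE 0.050) and the histone methyltransferases Kmt2b (0.11, SE 0.043, 0.07 without resilient 1), Ehmt1 (0.11, SE 0.072, 0.07 without resilient 1) and Ehmt2 (0.06, SE 0.045). Without susceptible 3 and resilient 1 both list medians were -0.01, with 7 of 17 and 13 of 30 higher. The chromatin median was 0.02 without resilient 1 and 0.01 without susceptible 3. Tnrc18, a chromatin-binding protein, was graded across the 3 groups at 9.38, 9.33 and 9.39 in susceptible arrays, 9.15, 9.27 and 9.23 in resilient arrays and 8.93, 8.89 and 8.94 in controls, and susceptible exceeded resilient arrays by 0.15 (SE 0.041) with no overlap.

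Oligodendrocyte and microglia markers were lower in susceptible arrays, mostly through resilient 1, and blood markers were higher. The 5 oligodendrocyte genes measured, of 20 listed, were all lower in susceptible arrays with a median of -0.14, among them Opalin (-0.21, SE 0.18, 0.04 without resilient 1) and Aspa, which degrades N-acetylaspartate (-0.20, SE 0.089, -0.10 without resilient 1). Averages were 8.61, 8.65 and 8.70 in susceptible arrays, 9.05, 8.62 and 8.64 in resilient arrays and 9.06, 8.92 and 8.95 in controls, so resilient 1 stood with the controls, and without it the median was 0.04. Of 9 microglia genes 8 were lower with a median of -0.04, or 4 higher and 5 lower without resilient 1. The defeated groups did not overlap for 1 of the 9 (11.1%, against 15% of all genes). Cd180, a relative of Toll-like receptors found on myeloid and B cells, was at 7.75, 7.70 and 7.84 in susceptible arrays, 8.22, 7.94 and 7.99 in resilient arrays and 8.31, 8.12 and 8.27 in controls and was lower without overlap (-0.28, SE 0.079), whereas Trem2, a lipid receptor of microglia, overlapped (-0.23, SE 0.12, -0.13 without susceptible 1). Of 6 blood genes 5 were higher and 3 did not overlap (50%, against 15% of all genes). Hba-a1 was at 12.08, 12.18 and 12.29 in susceptible arrays, 12.03, 12.04 and 12.03 in resilient arrays and 11.96, 11.91 and 11.97 in controls (0.15, SE 0.052, 0.09 without susceptible 3). Like it, Hba-a2, the other alpha-globin gene (0.16, SE 0.051), and Alas2, the haem synthesis enzyme of red cells (0.27, SE 0.081), lay wholly above resilient arrays. Both alpha-globin genes are near-identical copies, so their values are uncertain as separate genes. Endothelial and pericyte genes were split evenly by mean, with 4 of 8 higher, but 2 lay wholly below resilient arrays (25%, against 15% of all genes). Astrocyte genes were split evenly too, with 3 of 6 higher and 1 wholly above (16.7%, near the 15% of all genes).

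**Figure D5:**
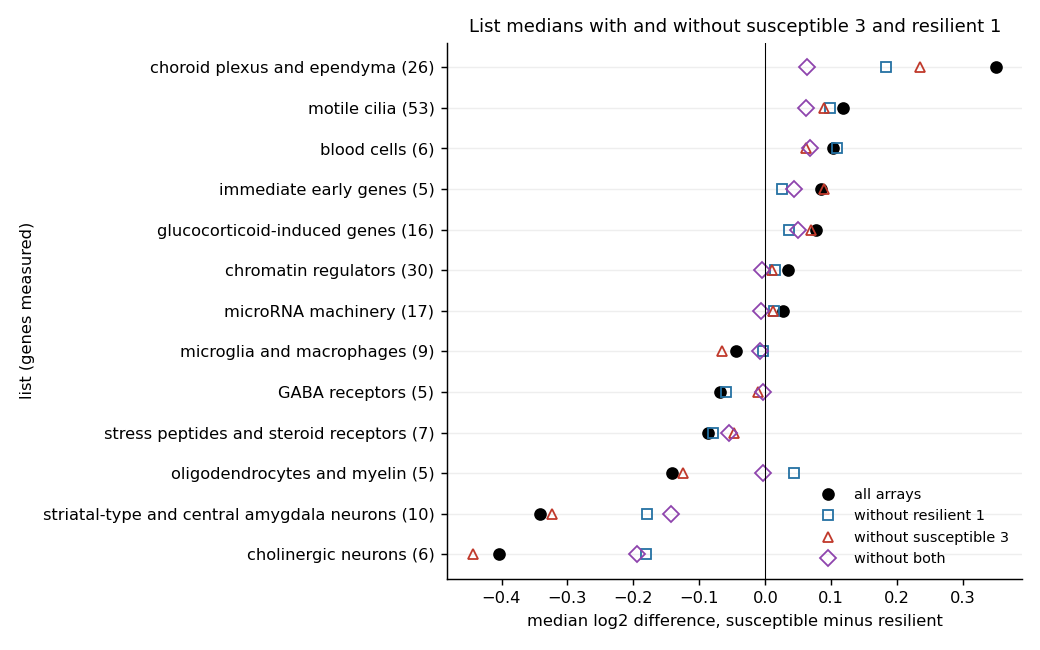
Median log2 difference, susceptible minus resilient (horizontal axis), over the measured members of 13 lists (vertical axis, number of genes in brackets) with all arrays, without resilient 1, without susceptible 3 and without both. The choroid plexus median is 0.35 with all arrays and 0.06 without both; the cholinergic median is -0.40 and -0.19.

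MicroRNA genes differed by small amounts, and none of those below was above background by the measure used here. Of 149 in the table, 76 were higher and 73 lower, and 5 lay wholly above and 7 wholly below resilient arrays (8.05% in either direction, against 15% of all genes). Without susceptible 3 the split was 56 higher and 92 lower, and without susceptible 3 and resilient 1 it was 51 and 97. By comparison 52.5% and 48.1% of all genes were higher under those settings. The table lists microRNA genes and does not separate precursors from the mature microRNA that Ago2 carries. Mature sequences from RefSeq (GRCm38.p6) are given for the 3 largest differences each way, since each seed (bases 2 to 8, in capitals) sets which transcripts that microRNA pairs with, and the 6 seeds are all different.
miR-449a-5p: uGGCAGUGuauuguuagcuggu
miR-365-3p: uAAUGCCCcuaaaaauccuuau
miR-680: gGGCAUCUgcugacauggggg
miR-19b-3p: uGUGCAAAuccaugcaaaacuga
miR-451a: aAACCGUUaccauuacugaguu
let-7d-5p: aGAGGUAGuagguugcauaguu

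Lower in susceptible arrays were Mir449a, of a family known from multiciliated cells, whose mature sequence lies at chr13:113037549-113037570, + strand, Mir365-1 (chr16:13453895-13453916, + strand) and Mir680-2 (chrX:144297790-144297810, + strand). Mir449a had log2 signals of 5.09, 5.05 and 4.88 in susceptible arrays, 5.19, 5.14 and 5.21 in resilient arrays and 5.30, 5.37 and 5.33 in controls (-0.17, SE 0.056, -0.11 without susceptible 3), with every susceptible array lowest. For Mir365-1 they were 5.59, 5.63 and 5.69 in susceptible arrays, 5.80, 5.87 and 5.74 in resilient arrays and 5.56, 5.69 and 5.69 in controls (-0.17, SE 0.051), with the resilient arrays above all others. Mir680-2 differed by -0.13 (SE 0.078), and Mir191 (-0.13, SE 0.043) and Mir298 (-0.12, SE 0.050, -0.08 without resilient 2) came next. Higher were Mir19b-2, of the growth-promoting miR-17 to 92 family of clusters, at chrX:52741991-52742013, - strand, Mir451a, an erythroid microRNA that is cut by Ago2 itself, at chr11:78073186-78073207, + strand, and Mirlet7d at chr13:48536078-48536099, - strand. Mir19b-2 was at 5.63, 5.81 and 6.04 in susceptible arrays, 5.55, 5.59 and 5.63 in resilient arrays and 5.41, 5.55 and 5.65 in controls (0.23, SE 0.095, 0.13 without susceptible 3), with resilient 3 just under susceptible 1. Mir451a was at 5.52, 5.54 and 5.72 in susceptible arrays, 5.41, 5.48 and 5.40 in resilient arrays and 5.35, 5.30 and 5.32 in controls (0.16, SE 0.055, 0.10 without susceptible 3), with susceptible 3 highest, as for the globin genes. Mirlet7d differed by 0.12 (SE 0.046), Mir695 by 0.07 (SE 0.039) and Mir208a by 0.05 (SE 0.036).

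Set beside the controls, more genes stood apart in susceptible than in resilient arrays. Susceptible arrays were above both other groups for 526 genes (5.37%) and below both for 350 (3.57%), whereas resilient arrays were above both for 147 (1.5%) and below both for 108 (1.1%). This difference in counts was not tested. The counts are for the values as deposited and were not repeated under the other scalings, which turned the split between the defeated groups. The 3 groups were fully apart with controls in the middle for 14 genes. In 10 of them (0.102%) susceptible was lowest, including Syt10, Ccl28 and Elavl2, an RNA-binding protein of neurons (-0.17, SE 0.051, -0.11 without susceptible 1). In the other 4 (0.0408%) susceptible was highest, namely Nhsl1, Cyb5r3, a cytochrome b5 reductase (0.09, SE 0.034), Pttg1ip (0.08, SE 0.036) and Fbxl16 (0.06, SE 0.032), all chosen after their values were seen.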

How the data were processed

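Per the labels' protocols, Ago2 was immunoprecipitated from amygdala and RNA was extracted with a kit protocol that keeps small RNA, then labelled for Affymetrix whole-transcript arrays. The deposited values are log2 signals from RMA (background correction, quantile normalisation and a summary per probe set), and Partek is also listed, per the submitters' processing notes; the sources used here do not give versions, array type or build. Gene symbols were joined by probe set from another deposited table, whose 9 value columns matched no label and were not used.

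From 11772 entries, 1 was kept for each of 9803 symbols (978 had several), that with the highest mean over 9 arrays. Symbols were updated through RefSeq (GRCm38.p6): 8393 were current, 1013 were replaced, 9 kept their name because the newer one was present and 388 had no match. A single limma fit of 3 group means used all 9 arrays, so that the spread of the controls counts too (eBayes prior 3.40 degrees of freedom, two-sided, no signal filter), with Benjamini-Hochberg adjustment over all symbols and calls at an adjusted p under 0.05. Differences are susceptible minus resilient with limma's SE. The number of arrays limits the precision, and 3 against 3 cannot reach an exact permutation p under 0.1. The fit was tested on simulated data. Alternatives were the 6 defeated arrays only, 2 scalings, array weights, an intensity-dependent prior, the replicate number as a block, a filter on low signal, all entries, an allowance for the table's selection (each p divided by 0.287, capped at 1) and leaving out each array; leaving out susceptible 3 and resilient 1 together was chosen after seeing the data.

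Genes were named by rule: the 15 largest differences each way among genes with no overlap between the defeated groups, a mean above 6.12 and a named locus; up to 6 members of each list with the largest differences; a few stress and microRNA genes; and, of microRNA genes without overlap, the 5 largest each way. Exceptions are stated beside them, and some genes that the rule takes are not reported here. Members and lists were chosen with earlier results of these data known. The fit ran in limma 3.58.1 under R 4.3.3. Tables were made in Python 3.11.15 with numpy 2.4.6 and pandas 2.3.3, intervals with scipy 1.17.1 and plots with matplotlib 3.10.9.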

Additional observations from a re-analysis of the deposited data

How the results depend on the processing

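limma called 0 genes under every alternative run except without susceptible 1, which gave 6. Those 6 calls carry no allowance for the selection of the table, which was applied only to the fit with all arrays. Leaving out 1 array gave 0 to 6. Genes at an unadjusted p under 0.05 ranged from 653 without susceptible 3 and resilient 1 to 2620 with array weights, against 1158. With the allowance for selection the smallest adjusted limma p was 1.0. Genes wholly below resilient arrays numbered 1221 with arrays shifted to 1 median, against 652. The median difference of all genes was 0.01 as deposited and -0.01 after that shift.

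The 126 named genes kept their direction and side of the threshold in 2234 of 2244 settings, a count largely fixed in advance. None was called with all arrays, and leaving out a control cannot change a difference. Genes whose defeated groups did not overlap cannot reverse when 1 array is left out. Exceptions were Adh1, called without susceptible 1 (0.53), and reversals of Opalin without resilient 1 (leaving out 1 array: -0.340 to 0.0429), of Bdnf without resilient 1 (-0.00108 to 0.0815) and without both arrays (-0.000325), of Ago2 with array weights (-0.0311) and without susceptible 1 (-0.00998 to 0.117), of Dicer1 without susceptible 2, resilient 2 or resilient 3 (-0.0605 to 0.0228), and of Aqp1 without both arrays (-0.0421); the cause was not tested. List medians moved past their spread in 25 of 306 settings. The medians of 8 lists, all near 0, changed sign with the scaling, namely astrocytes, basolateral and cortical excitatory neurons, circadian clock, microRNA genes, mitochondrial respiratory chain, potassium channels, protocadherins and zinc finger proteins. Deviations of same-numbered arrays from their group means correlated at 0.12, 0.017 and 0.074, and those of different-numbered arrays at -0.14 to 0.097. Deviations from a mean of 3 arrays are tied to each other, so these values cannot decide whether replicate numbers pair the samples. Replicate numbers as a block gave 0 calls and 1082 genes at an unadjusted p under 0.05, with a smallest adjusted p of 0.390 by limma. No deposited array repeated another, with at most 637 identical values in a pair.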

Other observations

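Resilient arrays stood apart from both other groups for a smaller set of genes, chosen here after their values were seen. Prg4, which encodes the lubricating protein lubricin of joints, was at 5.25, 5.53 and 5.73 in susceptible arrays, 5.78, 6.63 and 5.82 in resilient arrays and 5.35, 5.20 and 5.34 in controls, at a mean signal under 6.12 and with resilient 2 far above the rest (-0.57, SE 0.21, -0.29 without resilient 2). Bmp5, a bone morphogenetic protein, was at 5.67, 5.82 and 5.78 in susceptible arrays, 5.98, 6.13 and 6.06 in resilient arrays and 5.89, 5.69 and 5.89 in controls (-0.30, SE 0.066), so all resilient arrays were highest, at a signal near background. Unc5d, a netrin receptor, was well above background at 10.84, 10.90 and 10.78 in susceptible arrays, 10.99, 11.12 and 11.12 in resilient arrays and 10.96, 10.96 and 10.88 in controls (-0.23, SE 0.050, with a second entry at -0.06). Gjd2, the neuronal gap junction protein connexin 36, was at 8.49, 8.41 and 8.41 in susceptible arrays, 8.68, 8.63 and 8.63 in resilient arrays and 8.55, 8.37 and 8.28 in controls (-0.21, SE 0.063), and the orphan nuclear receptor gene Esrrg differed by -0.23 (SE 0.080). On the low side, Isg20, an interferon-induced exonuclease, differed by 0.19 (SE 0.066, 0.11 without resilient 2). By limma each of these 6 genes had an adjusted p of 0.411.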
